A study of Drosophila mojavensis with 172 samples.

Results

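Whole 6-hour eggs and whole 10-day-old females of Drosophila mojavensis, a desert fly whose larvae feed in rotting cactus, were compared on 28 of the 172 arrays of a life-history series, chosen by the stage written in the sample titles. There were 16 egg arrays and 12 female arrays, and each array gave 1 log2 signal for each of 14528 transcripts. All flies were wild type and came from 1 collection per population, either Las Bocas in Sonora or Punta Prieta. Las Bocas contributed 3 egg arrays from mothers raised on agria medium, 4 egg arrays from mothers raised on organ pipe medium, 4 arrays of agria-raised females and 2 of organ pipe-raised females. Punta Prieta contributed 4 and 5 egg arrays and 4 and 2 female arrays in the same order of diets. Each combination of population and diet is called a series below, and the 4 series weigh equally in every comparison of stages. The labels name the diet of the eggs' mothers but do not say that the females on the arrays laid those eggs, nor how many animals went into a sample or whether the females had mated. Nor do they say that replicates came from separate cultures, and p-values therefore rest on a spread between samples that may be technical.

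An insect egg is loaded by its mother before it is laid. In Drosophila melanogaster, nurse cells in the ovary make large amounts of RNA and pass them to the oocyte, the first cell cycles of the embryo run on that maternal RNA, and transcription from the embryo's own genome starts within the first hours of development. A mature female therefore holds, in her ovaries, RNA of the kind that her eggs receive, together with the RNA of gut, muscle, fat body, nervous system and other tissues of her own body. The comparison asks which transcripts stood at like levels in eggs and mature females, and which were specific to one of them.

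The deposited transcript identifiers could not be paired with gene names in the annotation given (0 of 14528 matched), so transcripts are named by identifier, no function is given to any of them, and the labelled stages could not be set against marker genes. Array medians were 10.96 to 11.19 in eggs and 11.20 to 11.40 in females. Each egg array correlated with the mean of the other arrays of its own group at 0.945 to 0.9947 across transcripts, and each female array at 0.9518 to 0.9939. Organ pipe-raised Las Bocas females were represented by 2 arrays that differed from each other, and population and diet counts that rest on 1 of them are given without it. The 3 arrays of Las Bocas agria eggs had the lowest correlations among eggs, at 0.945 to 0.9559. Their median SD over transcripts, 0.318, was the largest of the 8 groups, and the others lay at 0.128 to 0.234. Population counts in eggs moved widely when single arrays of this egg group were left out. In whole animals, fewer cells of a type and less RNA per cell cannot be told apart.

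Eggs and mature females were alike within 2-fold for most transcripts. By 2 one-sided moderated tests against a margin of 1 log2 unit (2-fold), 11629 transcripts (80% of 14528) were alike in both stages, and with a margin of 0.5 log2 units 4989 (34.3%) were. A further 2127 transcripts (14.6%) differed by at least 1 log2 unit at an adjusted p under 0.05 (limma, Benjamini-Hochberg over all transcripts). Of these, 1644 (11.3%) were higher in females and 483 (3.32%) were higher in eggs, and the other 772 were neither called different nor alike. The differences were larger on the female side. A change of at least 4-fold was found in 721 transcripts higher in females and 109 higher in eggs, and a change of at least 16-fold in 99 and 7. The 4 series gave 1 sign in 2108 of the 2127 (99.1%) and in 56.7% of the transcripts not called. A difference of at least 1 log2 unit within a series was found in 1231 to 1594 of the 1644 and in 309 to 438 of the 483. Every female array lay above every egg array in 1251 of the 1644 transcripts (76.1%), and every egg array above every female array in 344 of the 483 (71.2%), where the stages were separated in 16.1% of all transcripts. The 2127 were called on these same arrays, which favours 1 sign over the series and separated arrays, so these shares are descriptions. The members closest to the threshold differed by 1.000343 inside and 0.9997215 outside it on the female side, and by -1.000163 and -0.9998403 on the egg side.

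**Figure D1:**
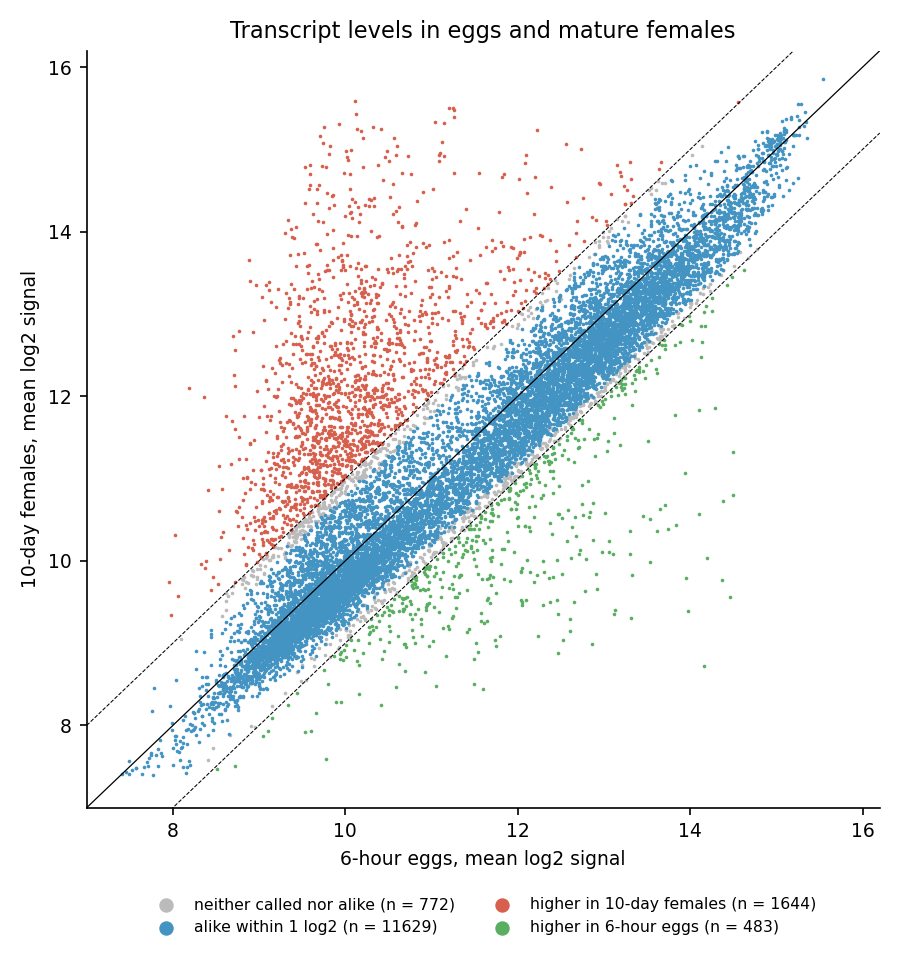
Mean log2 signal of each of 14528 transcripts in 6-hour eggs (x axis) and 10-day females (y axis), each the mean of 4 series. Points are coloured by the outcome of the tests, the solid line marks equal levels and the dashed lines mark a difference of 1 log2 unit. The 1644 transcripts higher in females spread far above the upper dashed line over eggs' signals near 10, and the 483 higher in eggs lie below the lower one.

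The share of transcripts higher in females depended on how the arrays were scaled. Over all transcripts the median difference was -0.20 (log2, females minus eggs) as deposited, with 77.3% of calls higher in females. With each array centred on its own median, the median difference was -0.43 and 57.3% of calls were higher in females (1401 against 1042). With quantile normalization over the 28 arrays the median was -0.21 and the share was 71.9% (1566 against 611). Without the minimum change of 1 log2 unit, 10499 transcripts (72.3%) passed, 3600 (24.8%) higher in females and 6899 (47.5%) higher in eggs. The count of 11629 alike transcripts is on the deposited scale, as are the lists and level differences below. Counts of alike transcripts and of list members on the other scales are not given here.

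Transcripts higher in females included many that were dim in eggs. Of the 1644, 712 had an egg mean at or under 9.865, the 25th percentile of all values on the 28 arrays, and 113 of those were at or above the 75th percentile (12.71) in females. Over all transcripts the 25th percentile of egg means was 9.866. The 1644 were chosen on the same arrays, so these counts are descriptions. FBtr0166679 had the largest difference. Its signal in eggs was 9.14 to 10.73 with a median of 9.67, and in females it was 14.71 to 15.63 with a median of 15.40. All 12 females lay above all 16 eggs. The fitted difference was 5.53 ± 0.11 (log2, SE), or 46.2-fold (limma, adjusted p = 1.54988e-23). FBtr0166726 followed, with eggs at 9.48 to 10.98 (median 10.13) and females at 15.29 to 15.77 (median 15.62), again without overlap, and a difference of 5.48 ± 0.11 (SE, adjusted p = 4.67285e-24).

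Transcripts higher in eggs were fewer and less often extreme. Of the 483, 202 were dim in females, and 13 of those were at or above the 75th percentile in eggs. Over all transcripts the lower quartile of female means was 9.90. The 483 were chosen on the same arrays, which favours low levels in females, so these counts are descriptions. FBtr0163884 had an egg signal of 13.43 to 14.79 with a median of 14.13 and a female signal of 8.33 to 9.00 with a median of 8.73. All eggs lay above all females, and the difference was -5.44 ± 0.099 (females minus eggs, SE, or 43.3-fold; limma, adjusted p = 2.14948e-24). Las Bocas eggs were higher than Punta Prieta eggs for this transcript (Punta Prieta minus Las Bocas -0.62 ± 0.13 log2, SE, adjusted p = 0.00532711). FBtr0167808 was at 14.01 to 15.05 in eggs (median 14.42) and at 9.05 to 9.89 in females (median 9.48), and it differed by -4.91 ± 0.11 (SE, adjusted p = 8.66831e-23).

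**Figure D2:**
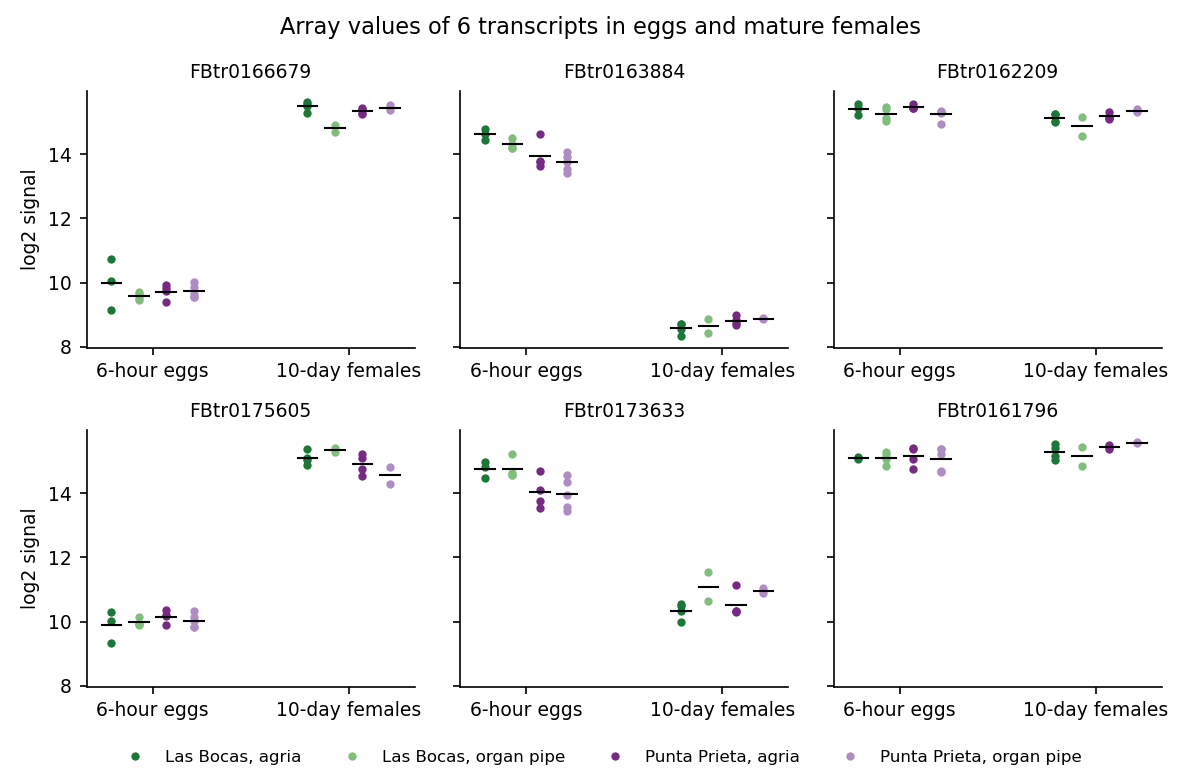
Log2 signal on each array for 6 transcripts, in eggs (left in each panel) and 10-day females (right). Points are arrays coloured by population and diet and short lines are group means. The left column shows 2 transcripts higher in every female than in every egg, the middle column 2 higher in every egg, and the right column 2 whose ranges overlap near the top of the scale.

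The levels of larvae and pupae were set beside these differences. Of the 1644 transcripts higher in females, 545 were at least 1 log2 unit above eggs in all 5 larval and pupal stages as well. Another 921 were above eggs in some of the 5 stages, and 178 in none. The share above eggs was 66.1% at instar 1, 73.4% at instar 2, 71.6% at instar 3, 56.2% in early pupae and 60.1% in late pupae. The 1644 were chosen with the same egg arrays, which favours other stages standing above eggs. No share over all transcripts was taken, so these figures are descriptions. FBtr0175605 is a member of the first group. Its stage mean was 10.01 in eggs, between 14.02 and 14.88 in larvae and pupae and 14.98 in 10-day females, and its signal was 9.33 to 10.35 in eggs (median 10.02) and 14.31 to 15.42 in females (median 15.06). FBtr0175430, of the same group, had stage means of 9.74 in eggs, 11.13 to 11.72 in larvae and pupae, 14.96 at adult emergence and 15.08 at 10 days. FBtr0165334 is of the group with no larval or pupal stage above eggs. Its means were 9.72 in eggs, 10.25 to 10.63 in larvae and pupae, 11.01 at emergence and 14.80 at 10 days, and the females ranged from 13.43 to 15.32.

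The transcripts higher in eggs divided in another way. Of the 483, 247 had no larval or pupal stage at least 1 log2 unit above females, 161 had some and 75 had all 5. The 75 were thus at least 1 log2 unit above 10-day females at every earlier stage before emergence. The 483 were chosen with the same female arrays and no share over all transcripts was taken, so this division is a description. FBtr0175103, of the 247, had a stage mean of 14.20 in eggs and 10.21 to 10.82 in larvae and pupae, and of 10.03 in 10-day females. Its egg signal ran from 13.32 to 14.76 and its female signal from 9.56 to 10.71. FBtr0170034 was at 13.12 in eggs, 9.40 to 10.19 in larvae and pupae and 9.36 in females. FBtr0173633 stood for the 75. It was at 14.38 in eggs, 12.52 to 13.30 in larvae and pupae, 10.88 at emergence and 10.73 in 10-day females. FBtr0168307, also of the 75, was at 14.10 in eggs, 11.94 to 12.79 in larvae and pupae and 10.57 in 10-day females.

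Transcripts that eggs and mature females held in common were sought against the larval and pupal stages. In 2676 transcripts the egg mean was at least 1 log2 unit above the mean of every larval and pupal stage, and in 1674 the 10-day mean was. Both held for 1409, which is 52.7% of the egg list and 84.2% of the female list, where the lists are 18.4% and 11.5% of all transcripts. Both lists were set against the same larval and pupal arrays, so their overlap is given as a description. Of the 1409, 1271 were also alike between eggs and females. Without 12 larval and pupal arrays that correlated better with another stage than with their own, the lists held 2556, 1551 and 1315. Of the egg list, 2248 were alike in females, 223 were higher in eggs, 2 higher in females and 203 neither. Over all transcripts 80% were alike, 3.32% higher in eggs, 11.3% higher in females and 5.31% neither. The egg list was chosen with the same egg arrays, which favours transcripts higher in eggs, so this division is a description as well. Both named examples of the shared transcripts lie near the top of the deposited range. FBtr0162209 was at 14.96 to 15.58 in eggs (median 15.39) and 14.58 to 15.40 in females (median 15.17). The ranges overlapped in all but 1 female, and the difference of -0.21 ± 0.074 (SE) lay within 1 log2 unit (equivalence test, limma, adjusted p = 3.62e-10). FBtr0161796 was at 14.68 to 15.42 in eggs (median 15.11) and at 14.87 to 15.61 in females (median 15.45), with a difference of 0.26 ± 0.098 (SE, adjusted p for equivalence = 1.04e-07). For this transcript 7 of the 12 females lay above all eggs. Its larval and pupal means were 10.39 to 11.27.

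**Figure D3:**
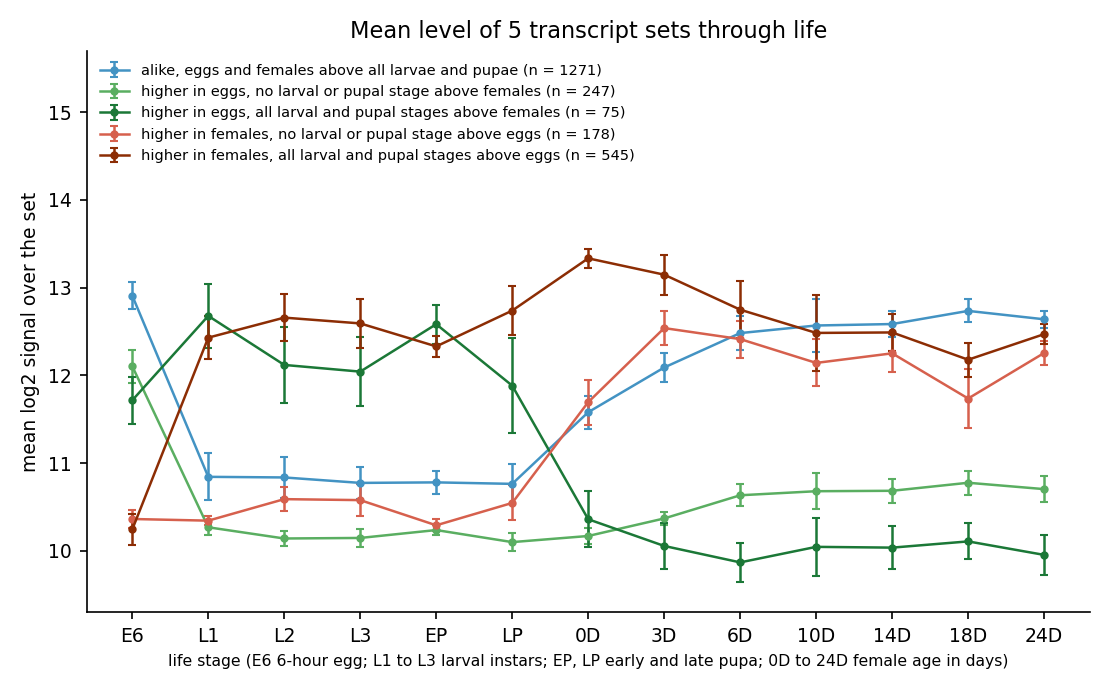
Mean log2 signal of 5 transcript sets at each life stage, with 13 stages on the x axis. Points are means over arrays of the set's mean and bars are SDs over arrays. The 1271 shared transcripts, defined as high in eggs and 10-day females, stood at 11.58 at emergence and 12.48 at 6 days. The levels of the other 4 sets in eggs, larvae, pupae and 10-day females follow from how the sets were defined.

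The egg list, of which 1267 members are not in the female list, was followed in adult females. It was chosen with no adult array, so the change from emergence to 10 days is an independent reading of it. From 0 to 10 days, 841 of the 2676 (31.4%) were higher and 10 were lower (0.374%), at an adjusted p under 0.05 and 1 log2 unit (limma on 60 arrays), and the median change was 0.71. Over all transcripts 8.56% were higher, 8.43% were lower and the median change was -0.03. FBtr0162972 changed most among them. It went from 10.33 at emergence to 15.05 at 10 days, an increase of 4.71 ± 0.095 (SE, adjusted p = 2.93093e-39), with eggs at 15.19. FBtr0161796 increased by 4.58 ± 0.15 (SE, adjusted p = 2.60976e-31) to the level of eggs given above. Some members of the egg list fell. FBtr0173575 was at 14.50 in eggs, 13.17 at emergence and 11.32 at 10 days, and it fell by 1.84 ± 0.11 (SE) over those days (adjusted p = 5.29339e-21). FBtr0163472 fell by 1.74 ± 0.20 (SE, adjusted p = 6.87074e-11), from 11.76 to 10.02, with eggs at 12.79.

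The list of transcripts high in 10-day females was chosen with no egg array, so eggs against 0-day females are an independent reading of it. Eggs were above newly emerged females in 927 of the 1674 (55.4%) and below them in 151 (9.02%), with a median difference of 1.13. Over all transcripts 37.2% were called, 18.3% above and 18.9% below. FBtr0162289 differed most after FBtr0162972. It was at 13.36 in eggs and 8.82 at emergence, a difference of 4.54 ± 0.13 (SE, adjusted p = 4.25909e-34), and 10-day females were between at 12.06. The reverse held for FBtr0161848, with eggs at 9.71, emergence at 15.16 and 10-day females at 15.17, and for FBtr0175430. Eggs were below newly emerged females by 5.45 ± 0.059 and 5.22 ± 0.099 (SE) for these (limma, adjusted p = 3.16612e-52 and 7.18011e-42). From 0 to 10 days FBtr0161848 and FBtr0175430 differed by 0.01 ± 0.066 and 0.12 ± 0.11 (SE, adjusted p = 0.944631 and 0.376142).

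The change from 0 to 6 days shares no array with the comparison of 10-day females and eggs. The stage means of 6-day and 10-day females were close (r 0.988 across transcripts), so sets chosen on 10-day levels tend to a like level at 6 days. Over all transcripts, 6.9% were higher at 6 days and 4.8% were lower. Of the 1271 shared and alike transcripts, 384 (30.2%) were higher at 6 days and 0 were lower, by limma at an adjusted p under 0.05 and 1 log2 unit, with a median change of 0.73 and with 1206 of the 1271 above 0. Of the 1644 higher in females, 212 (12.9%) were higher at 6 days and 209 (12.7%) lower. Among the 178 with no larval or pupal stage at least 1 log2 unit above eggs, 51 (28.7%) were higher and 0 lower. Among the 921 with some such stages, 144 (15.6%) were higher and 96 (10.4%) lower, and among the 545 with all 5, 17 (3.12%) were higher and 113 (20.7%) lower. FBtr0174527 went from 8.19 at emergence to 13.40 at 6 days and was at 12.74 at 10 days, with eggs at 8.70. FBtr0163649 went from 9.07 to 13.99, was at 13.31 at 10 days and at 9.40 in eggs. Its 10-day arrays ran from 9.10, in an organ pipe-raised Las Bocas sample, to 15.41, against 8.90 to 10.32 in eggs. Of the 12 females, 11 lay above all eggs for FBtr0163649. The increases of FBtr0174527 and FBtr0163649 from 0 to 6 days were 5.21 ± 0.15 and 4.92 ± 0.30 (SE, adjusted p = 2.34276e-33 and 3.7096e-20). FBtr0175588 fell from 14.48 to 11.81 and FBtr0175098 from 14.03 to 11.45, and their eggs were at 10.23 and 9.70.

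The same days were read for the 483 higher in eggs. Of these, 58 (12%) were higher at 6 days than at emergence and 26 (5.38%) lower. All 58 were among the 247 with no larval or pupal stage above females, of which 3 were lower, and none of the 58 were among the 75 of the opposite group, of which 7 (9.33%) were lower. These groups were defined on the level of 10-day females. An increase that lasted to 10 days favours the group of 247, so where the 58 fell is a description. FBtr0162289 and FBtr0175443 increased by 3.29 ± 0.14 and 3.03 ± 0.13 (SE) over the 6 days, and 10-day females stood at 12.06 and 12.31 where eggs stood at 13.36 and 13.46. Both were thus nearer to the egg level at 10 days than at emergence and still called higher in eggs. Over the 4 series they differed by -1.30 and -1.15 (females minus eggs, log2), and by -2.37 and -1.94 in the Las Bocas organ pipe series. The 2 female arrays of that series stood at 9.82 and 12.11 for FBtr0162289 and at 10.78 and 12.10 for FBtr0175443. The other series gave -1.08 to -0.84 and -0.92 to -0.84. These 2 calls were not repeated without either array. FBtr0162444 fell by 2.88 ± 0.086 (SE) from 13.33 at emergence, and FBtr0162001 fell by 2.73 ± 0.13 (SE) from 13.34. They were high in early pupae as well (14.51 and 13.06).

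Across life stages, eggs were most like females of 10 days and older. Pearson's r between the stage means of eggs and of other stages, across 14528 transcripts, was 0.505 to 0.574 for larvae and pupae, 0.649 for newly emerged females, 0.716 at 3 days, 0.782 at 6 days and 0.838 at 10 days. It was 0.831, 0.873 and 0.825 at 14, 18 and 24 days. These values are descriptions across transcripts that share arrays, and transcripts are not independent replicates. Of the 1453 transcripts with the highest signals in eggs (10% of all), 1020 (70.2%) were among the highest 1453 of 10-day females, and 635 (43.7%) among those of newly emerged females. The highest r and the highest share, 1121 transcripts or 77.2%, were at 18 days.

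Each female array was then placed between the newly emerged females (0) and the eggs (1) of its own series, over transcripts chosen in the other population. For transcripts higher in eggs than at emergence, 3-day females stood at 0.262 ± 0.13 in Las Bocas (SD, n = 8) and 0.325 ± 0.11 in Punta Prieta (n = 7). At 6 days the positions were 0.472 ± 0.13 (n = 5) and 0.556 ± 0.092 (n = 9), and at 10 days 0.495 ± 0.16 and 0.704 ± 0.044 (n = 6 each). At 14 days they were 0.586 ± 0.049 and 0.629 ± 0.094 (n = 5 each), at 18 days 0.674 ± 0.049 (n = 4) and 0.728 ± 0.059 (n = 5), and at 24 days 0.625 ± 0.081 and 0.641 ± 0.034 (n = 3 each). The 10-day Las Bocas arrays ran from 0.221 to 0.671, and the lowest was replicate 1 of organ pipe-raised females. For transcripts lower in eggs than at emergence the positions were smaller, at 0.26 ± 0.072 and 0.472 ± 0.094 at 10 days. The 2 populations were read on different transcript lists of 2537 to 2872 transcripts, and their positions are given side by side without a test.

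**Figure D4:**
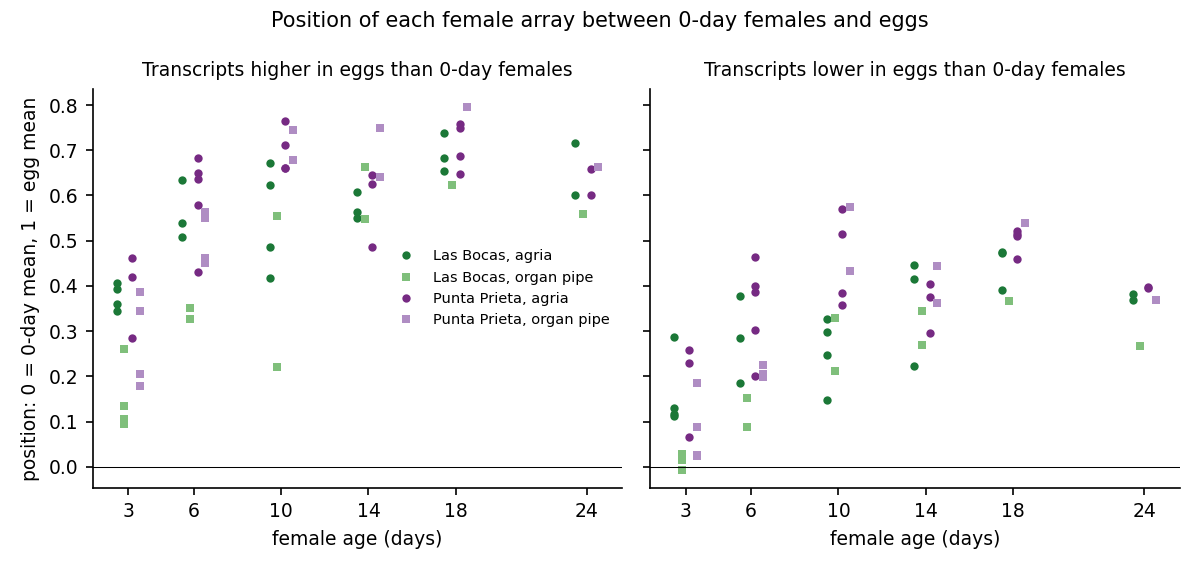
Position of each female array between newly emerged females (0) and eggs (1) of its own series, against female age in days. The left panel uses transcripts higher in eggs than in newly emerged females and the right panel those lower in eggs, each chosen in the other population. Points are arrays coloured by population and diet. In the left panel the 3-day arrays lie lower than most 10-day arrays, and 1 organ pipe-raised Las Bocas array of 10 days stands at 0.221.

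The female and egg difference was present in each series but not of 1 size. In Las Bocas, 2028 (14%) and 1903 (13.1%) transcripts were higher in females and 882 (6.07%) and 1373 (9.45%) lower, on agria and organ pipe. In Punta Prieta 1506 (10.4%) and 1275 (8.78%) were higher and 570 (3.92%) and 419 (2.88%) lower. The median difference of the 1644 transcripts higher in females was 2.18, 2.11, 1.72 and 1.53 in these 4 series, and that of the 483 higher in eggs was -1.48, -1.57, -1.37 and -1.20. The mean level of the 1644 was 12.54 ± 0.22 (SD, n = 4) and 12.51 ± 0.24 (n = 2) in Las Bocas females and 12.05 ± 0.32 (n = 4) and 11.85 ± 0.34 (n = 2) in Punta Prieta females, on agria and organ pipe. In eggs it was 10.16, 10.19, 10.10 and 10.05.

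A test of the difference between populations called 1527 transcripts (10.5%; limma interaction, adjusted p under 0.05). This count fell to 299 without replicate 1 of the organ pipe-raised Las Bocas females and rose to 2621 without replicate 2 of the same group. Of the 1644 transcripts higher in females, 496 (30.2%) had a smaller difference in Punta Prieta and 46 a larger one, against 5.84% and 4.67% of all transcripts. Without that replicate 1 the first count was 115 (7%, against 1.2% of all). Punta Prieta females were below Las Bocas females in 1114 of the 1644 (67.8%, against 14.2% of all), and in 599 (36.4%, against 5.9% of all) without it. The 1644 were chosen with the same arrays, so these counts are descriptions.

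Individual transcripts showed both directions. FBtr0174470 was at 9.10 to 9.83 in Punta Prieta eggs on agria and at 13.99 to 14.49 in Punta Prieta females of both diets, whereas the Las Bocas females on agria ran from 8.52 to 12.12 and those on organ pipe were at 9.57 and 13.32. The population difference in the contrast was 3.98 ± 0.64 (log2, SE, adjusted p = 0.000478299). FBtr0163650 was similar, with Punta Prieta females at 14.23 to 15.45 and all eggs at or under 10.31. Las Bocas females on agria held 3 arrays at 9.43 to 9.79 and replicate 1 at 14.24, and those on organ pipe were at 9.09 and 12.77. The difference was 3.98 ± 0.80 (SE, adjusted p = 0.00383474). FBtr0167365 went the other way. Las Bocas females were at 13.66 to 14.92, Punta Prieta females at 10.12 to 12.37 and eggs at 9.92 to 11.42, and the difference was -2.37 ± 0.34 (SE, adjusted p = 0.000181138). For FBtr0165875, Las Bocas females were at 12.37 to 13.60 and Punta Prieta females at 11.26 to 12.27, with a difference of -1.96 ± 0.30 (SE, adjusted p = 0.000246971).

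Population differences were read in eggs and in females separately, since they share no array. In eggs, 1485 transcripts (10.2%) differed between populations at an adjusted p under 0.05 (limma), 1068 higher in Punta Prieta and 417 higher in Las Bocas. The egg count was 3203, 595 and 546 without replicate 1, 2 or 3 of the Las Bocas agria eggs. In 10-day females, 4772 (32.8%) differed, and 1600 did without replicate 1 of organ pipe-raised Las Bocas females. The lists shared 573 transcripts (3.94% of all), which is 38.6% of the egg list and 12% of the female list. Of these, 523 (91.3%) had the same direction, 375 higher in Punta Prieta and 148 higher in Las Bocas, and 50 had opposite directions. Over all transcripts 62.9% had the same direction in both stages. The number in both lists was 221 (207 in the same direction) without replicate 1 of organ pipe-raised Las Bocas females and 1278 (1121 in the same direction) without replicate 1 of the Las Bocas agria eggs. Of the 573, 467 (81.5%) were alike between stages, near the 80% of all transcripts that were.

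**Figure D5:**
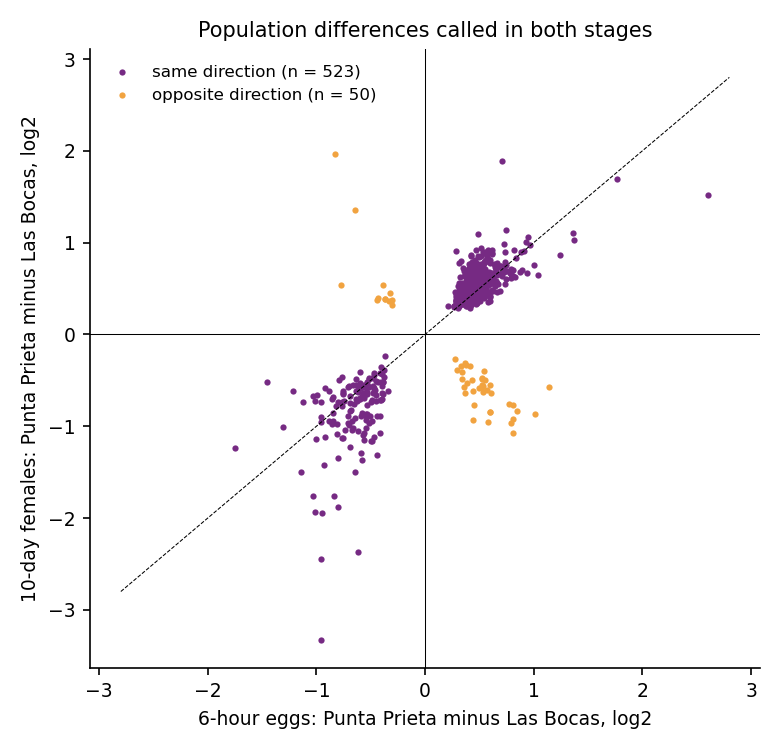
Punta Prieta minus Las Bocas difference (log2) in 6-hour eggs (x axis) and in 10-day females (y axis) for the 573 transcripts called in both. Points are transcripts, purple for the 523 with the same direction and orange for the 50 with opposite directions, and the dashed line marks equal differences.

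FBtr0166843 was higher in Punta Prieta at both stages. Eggs were at 10.35 to 11.43 in Punta Prieta and at 7.94 to 8.86 in Las Bocas, and females at 9.78 to 10.29 and at 7.94 to 8.70, so that no array of one population overlapped with the other. The differences were 2.61 ± 0.16 in eggs and 1.52 ± 0.19 in females (SE, limma, adjusted p = 2.82648e-11 and 6.80491e-06). FBtr0164933 also separated the populations at both stages, with Punta Prieta arrays at 8.80 or more and Las Bocas arrays at 7.93 or less. This transcript was among the dimmest, at percentile 1.4 of transcripts in eggs and 1.25 in females, where the lowest deposited value was 7.2524. It differed by 1.77 ± 0.18 in eggs and 1.69 ± 0.21 in females (SE, adjusted p = 1.12687e-06 and 9.03969e-06). FBtr0171396 was higher in Las Bocas. Eggs were at 11.31 to 12.02 in Las Bocas and at 9.44 to 10.44 in Punta Prieta, and females at 10.60 to 11.51 and at 9.68 to 10.32, with differences of -1.75 ± 0.13 and -1.24 ± 0.16 (SE, adjusted p = 2.31717e-09 and 8.65878e-06). FBtr0168357 differed by -1.14 ± 0.17 in eggs and -1.50 ± 0.20 in females (SE, adjusted p = 0.000378959 and 1.751e-05). Among those with opposite directions, FBtr0173973 was higher in Punta Prieta eggs by 1.01 ± 0.17 and lower in Punta Prieta females, at -0.87 ± 0.20 (SE, adjusted p = 0.00116721 and 0.00198965). FBtr0168962 had 0.84 ± 0.20 and -0.83 ± 0.24 (SE, adjusted p = 0.0123237 and 0.0102517), and neither of its differences passed when all 172 arrays gave the spread.

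The 1271 shared and alike transcripts leaned to Punta Prieta. In females, 831 (65.4%) were higher in Punta Prieta and 2 lower, against 18.7% and 14.2% of all transcripts, and without replicate 1 of organ pipe-raised Las Bocas females 192 (15.1%) were higher and 0 lower, against 5.11% and 5.9% of all in the same limma fit. In eggs, 225 (17.7%) were higher and 2 lower, against 7.35% and 2.87% of all. Without replicate 1 of the Las Bocas agria eggs 468 (36.8%) were higher and 9 lower, against 15% and 7.09% of all. For the mean of the set, that egg replicate stood at 13.01 and replicates 2 and 3 at 12.65 and 12.58. Punta Prieta eggs stood at 12.91 to 13.06. The set was not counted without egg replicate 2 or 3. Without replicate 3 the egg count over all transcripts fell from 1485 to 546. The mean level of the set was 12.48 ± 0.20 (SD, n = 4) and 12.13 ± 0.45 (n = 2) in Las Bocas females on agria and organ pipe and 12.81 ± 0.080 (n = 4) and 12.70 ± 0.082 (n = 2) in Punta Prieta females. The lowest of the 12 female arrays, at 11.81, was replicate 1 of organ pipe-raised Las Bocas females.

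Diet of the females, or of the eggs' mothers, was compared last. The female and egg difference differed between diets in 9 transcripts (0.0619%; limma interaction, adjusted p under 0.05), 1 in the positive direction (0.00688%) and 8 in the negative (0.0551%). The count ranged from 0 to 1116 when single arrays were left out. The 0 came without replicate 2 of the organ pipe-raised Punta Prieta females and the 1116 without replicate 2 of the organ pipe-raised Las Bocas females. FBtr0162061 was lower in organ pipe-raised females, at 11.65 to 14.05 on agria and 9.21 and 10.11 on organ pipe in Las Bocas, and at 12.59 to 13.21 and 11.88 and 12.10 in Punta Prieta, with eggs of all groups at 9.48 to 10.33. The diet difference in the contrast was -1.92 ± 0.35 (SE, adjusted p = 0.0251508). FBtr0168259 had -1.86 ± 0.35 (SE, adjusted p = 0.0276927) and FBtr0162461 had 0.82 ± 0.16 (SE, adjusted p = 0.0480882). All 3 missed the threshold under quantile normalization, under median centring and when all 172 arrays gave the spread. In eggs alone, 0 transcripts differed between the diets of the mothers by limma, with 371 (2.55%) at an unadjusted p under 0.05. In 10-day females, 1336 (9.2%) differed between diets, 759 (5.22%) higher and 577 (3.97%) lower on organ pipe. The count was 45 without replicate 1 and 3152 without replicate 2 of organ pipe-raised Las Bocas females, and 26 when all 172 arrays gave the spread.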

How the data were processed

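Total RNA was copied into double-stranded cDNA, labelled with Cy3 and hybridised to one-colour NimbleGen arrays, per the labels' protocols. The authors deposited a table of log2 values, and the submitters' processing notes name RMA as its method. Its software, its version and the set of arrays it ran over are unknown (not given in the sources used here). Values lay between 7.2524 and 15.93. Scanner files, background signals, slides and positions were not used here, so no level of a transcript can be called background, and the number of arrays limits the precision.

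A linear model of the 28 arrays was fitted in R 4.3.3 using lmFit and eBayes of limma 3.58.1, with 1 mean for each of 8 groups and 20 residual degrees of freedom, and contrasts averaged the 4 series equally. A stage difference was called at an adjusted p under 0.05 (Benjamini-Hochberg) and an absolute log2 change of at least 1, other contrasts at the adjusted p alone. Likeness was tested by 2 one-sided tests against 1 log2 unit. Changes with age came from a fit of 60 arrays in 16 groups (44 residual degrees of freedom). Female arrays were placed by least squares on the line from the 0-day to the egg mean of their series. The steps were tested on simulated data. Figures were drawn with matplotlib.

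Identifiers matched no gene of the annotation given, so planned gene lists were not run. Named by ID instead are the 2 called transcripts with the largest change in each direction per comparison or set (same sign in all 4 series for females minus eggs), and the 2 brightest alike ones. Members, sets and lists were chosen with earlier results of these data known. No 2 arrays held identical values (highest r 0.9935). Alternatives were other scalings, spreads, weights, thresholds, a replicate block and leaving out each array.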

Additional observations from a re-analysis of the deposited data

Results flagged for a closer look

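Among 205 checks, of 38 named transcripts and 3 set means in 5 groups of 4 or 5 arrays, 12 (all of single transcripts) had a single array far from the others, and chance flags about 1 in 20 such groups. In 10-day Las Bocas females on agria, replicate 4 stood at 11.92 for FBtr0175098 (the others at 11.12 to 11.14) and at 13.32 for FBtr0173973 (12.60 to 12.69), and replicate 1 stood at 14.24 for FBtr0163650 (9.427 to 9.793). In Las Bocas eggs on organ pipe, replicate 2 was at 15.22 for FBtr0173633 and replicate 4 at 9.928 for FBtr0163650. In Punta Prieta eggs on agria, replicate 2 was at 14.63 for FBtr0163884 and 13.43 for FBtr0163472 and replicate 3 at 15.58 for FBtr0162209. In Punta Prieta females on agria, replicate 1 was at 15.77 for FBtr0166726 and 11.15 for FBtr0173633. In Punta Prieta eggs on organ pipe, replicate 5 was at 14.96 for FBtr0162209 and replicate 4 at 8.805 for FBtr0164933.

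The difference between 10-day females and eggs itself differed between populations (limma interaction, Punta Prieta minus Las Bocas, log2, adjusted p under 0.05) for 14 of the named transcripts. It was larger in Punta Prieta for FBtr0174470 (3.985), FBtr0163650 (3.984), FBtr0163649 (2.343), FBtr0162061 (1.423), FBtr0168259 (1.263) and FBtr0165334 (0.7253). For FBtr0163884, which was higher in eggs, the value of 0.8532 means a smaller gap in Punta Prieta. Negative values were found for FBtr0167365 (-2.366), FBtr0165875 (-1.961), FBtr0173973 (-1.88), FBtr0168962 (-1.678), FBtr0166843 (-1.087), FBtr0175588 (-0.673) and FBtr0175605 (-0.6526). Between diets (organ pipe minus agria) it differed for FBtr0162061 (-1.919), FBtr0168259 (-1.863) and FBtr0162461 (0.8192).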

How the results depend on the processing

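No named transcript changed direction under any alternative run for it. Counts of stage differences were within 1.5 times of those reported under the additive model, array weights, the array SD as a covariate, the filter on dim transcripts, all 172 arrays, the replicate block and quantile normalization. Median centring gave 1042 transcripts higher in eggs. With no minimum change more were higher in eggs (6899) than in females (3600), the opposite of the order with the minimum, and with a minimum of 2 log2 units 721 and 109. A margin of 0.5 left 4989 alike, and a minimum of 2 log2 units left 479, 176 and 116 transcripts in the egg list, the female list and both. Leaving out single arrays gave 1601 to 1699 higher in females, 443 to 579 higher in eggs and 11263 to 11725 alike. Population and diet counts moved more. Without single arrays they were 299 to 2621 for the population difference in the contrast, 0 to 1116 for the diet difference, 546 to 3203 for population in eggs, 1600 to 5212 for population in females, 221 to 1278 for both, 45 to 3152 for diet in females and 0 for diet in eggs. With all 172 arrays giving the spread the first 5 were 423, 0, 711, 3055 and 308, and diet in females was 26. Quantile normalization gave 1 for the diet difference, 714 for diet in females and 381 for both, and median centring gave 0 for the diet difference. The causes were not tested. Replicate numbers did not pair the samples (11 same-number pairs, r from -0.399 to 0.21, 2 over 0.1). With the replicate block the diet difference was called in 2, population in eggs in 715, diet in females in 199 and both in 267. Single values of named transcripts kept direction and side of the threshold in 1091 cases. In 49 they no longer met the rule for their call, by the adjusted p or by the minimum change.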
